A study of Mus musculus with 6 samples.

Results

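The transcripts of 9 enzymes that make serine, interconvert serine and glycine, carry folate-bound carbon units or make asparagine were followed in the mouse line RAW264.7. They were taken by gene symbol from a deposited table of 21604 genes: Phgdh, Psat1, Psph, Shmt1, Shmt2, Mthfd1, Mthfd1l, Mthfd2 and Asns. All 9 symbols were found, and all 9 passed the filter on low counts. RAW264.7 is a macrophage-like line grown from a tumour of a virus-infected mouse, although the labels give its cell type as bone marrow macrophage and its genotype as wild type. The first group of 3 samples was given LPS (lipopolysaccharide, an outer membrane molecule of bacteria to which macrophages respond) for 24 h, at 100 ng/mL. The second group of 3 received the same dose of LPS together with PE-CUR at 2 mg/mL for 24 h. PE-CUR is the label of the treatment, and the title of the series speaks of Pickering emulsions loaded with curcumin, a plant polyphenol. All 6 samples thus had LPS, and no untreated cells, empty emulsion or free curcumin are named in the labels. The protocol text common to all samples names both agents, so the groups rest on each sample's own title and treatment label. Nothing says that the 3 samples of a group were grown apart, and p-values here measure only how these samples spread, which may be technical.

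Serine is made from a glycolytic intermediate in a chain of 3 enzymes. Phgdh oxidises the intermediate, Psat1 adds an amino group taken from glutamate, and Psph removes the phosphate. The serine hydroxymethyltransferases Shmt1, in the cytosol, and Shmt2, in mitochondria, turn serine into glycine and pass a carbon unit to tetrahydrofolate. In mitochondria Mthfd2 oxidises that unit and Mthfd1l releases it as formate. Mthfd1 in the cytosol joins formate to folate again for the synthesis of purines and thymidylate. Asns makes asparagine from aspartate and belongs here because its gene, like those of several serine enzymes, is a known target of the stress factor ATF4. Activated macrophages are known to draw on this pathway for nucleotides, glutathione and methyl groups.

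The enzymes fell into 2 sets by the size of their change. Shmt1, Shmt2, Mthfd1 and Mthfd1l were 2.12-fold to 3.14-fold higher in LPS plus PE-CUR and Psat1 was 1.82-fold higher. Psph and Mthfd2 were 1.16-fold and 1.11-fold higher, and Phgdh and Asns did not pass the test. In all, 7 of 9 rose, 0 fell and 2 did not pass. The test was edgeR's quasi-likelihood test over 13014 genes in 3 against 3 libraries, and the threshold was 0.05 on the p adjusted by Benjamini and Hochberg's method. Of all genes tested 63.4% were called, 30.8% higher and 32.7% lower, so a call by itself is common here. Changes of at least 2-fold upward were called for 4 of the 9 and for 6.37% of all genes tested. The median log2 fold change was 0.86 over the 9 enzymes and -0.03 over all genes tested.

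**Figure D1:**
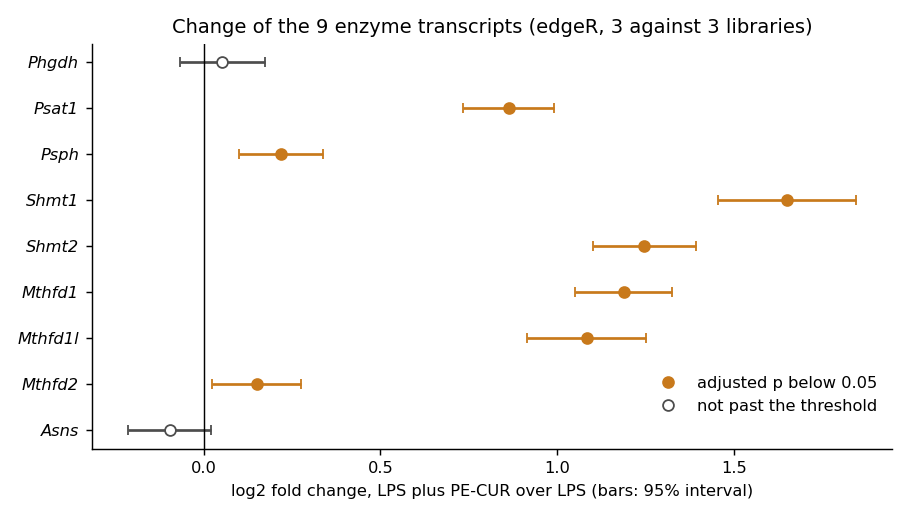
Log2 fold change of each enzyme transcript, LPS plus PE-CUR over LPS, with 95% intervals from the edgeR fit; filled points passed the threshold and open points did not. Shmt1, at 1.65, lies farthest to the right, and the intervals of Phgdh and Asns include 0.

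Library totals ran from 28530750 to 35276533 counts, so even Shmt1, the enzyme with the fewest reads, had at least 416 counts in each library. Of 12 macrophage markers 10 exceeded 1 CPM, the count of a gene relative to the total of its library, in at least 1 library, and Marco and Mrc1 stayed below it. Their summed level was 10946 to 11579 CPM in LPS and 9020 to 10100 CPM in LPS plus PE-CUR. Lyz2 alone gave 6180 to 6905 and 4328 to 5222 CPM of it, and single markers moved in both directions. Adgre1 went from 78.0 to 92.8 CPM in LPS to 24.0 to 31.1 CPM with PE-CUR. Csf1r went from 848 to 942 CPM to 1075 to 1324 CPM. Hepatocyte transcripts set 4 libraries apart, which were the 3 LPS libraries and LPS plus PE-CUR replicate 3. The 10 hepatocyte markers summed to 78.6 to 94.3 CPM in LPS, to 90.7 CPM in replicate 3 of LPS plus PE-CUR and to 4.84 and 4.80 CPM in replicates 1 and 2. Fibroblast markers summed to 12.3 CPM in LPS plus PE-CUR replicate 2 and to 0.341 to 2.78 CPM elsewhere. Without LPS plus PE-CUR replicate 3 the log2 fold changes of Shmt1, Shmt2, Mthfd1, Mthfd1l and Psat1 were 1.68, 1.29, 1.20, 1.11 and 0.88, and without replicate 2 they were 1.70, 1.30, 1.25, 1.15 and 0.92. Leaving out replicate 3 makes the hepatocyte level differ wholly between the groups, so that fit is no check on these transcripts. Their part in the changes was not tested. In bulk RNA, fewer cells of a type and less RNA per cell cannot be told apart.

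Upstream sequences are shown for 2 enzymes that rose, Psat1 and Shmt2, and for 2 that changed little or did not pass, Mthfd2 and Asns. They come from RefSeq (GRCm38.p6, the mouse assembly also called mm10), whose promoter table held 10 windows of 250 bases before a start site for the 9 genes. Each is written 5′ to 3′ on the strand of the gene, and 3 motifs, searched on both strands, are in capitals. CCAAT is the box bound by the factor NF-Y. The E-box bound by Myc proteins is CACGTG. The core of the element through which ATF4 acts with C/EBP partners is TGATGNAA. The matches do not overlap each other. For Psat1 the window is chr19:15925060-15925309, minus strand, for Shmt2 chr10:127522445-127522694, minus strand, and for Mthfd2 chr6:83317607-83317854, minus strand, where the last 2 bases before the start are left out. The Mthfd2 start used by the table lies inside the annotated gene, downstream of its outermost start. For Asns only the 30 bases around its match are printed, chr6:7693214-7693243, minus strand.
Psat1: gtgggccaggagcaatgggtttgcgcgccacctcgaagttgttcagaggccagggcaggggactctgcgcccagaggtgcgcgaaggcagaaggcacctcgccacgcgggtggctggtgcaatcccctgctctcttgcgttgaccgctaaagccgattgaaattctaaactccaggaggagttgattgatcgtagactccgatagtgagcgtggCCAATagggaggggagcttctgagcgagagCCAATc
Shmt2: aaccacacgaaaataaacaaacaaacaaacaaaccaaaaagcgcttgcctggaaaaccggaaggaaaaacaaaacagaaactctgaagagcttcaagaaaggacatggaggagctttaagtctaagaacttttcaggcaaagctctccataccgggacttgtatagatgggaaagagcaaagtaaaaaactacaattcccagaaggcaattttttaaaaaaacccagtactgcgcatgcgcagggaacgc
Mthfd2: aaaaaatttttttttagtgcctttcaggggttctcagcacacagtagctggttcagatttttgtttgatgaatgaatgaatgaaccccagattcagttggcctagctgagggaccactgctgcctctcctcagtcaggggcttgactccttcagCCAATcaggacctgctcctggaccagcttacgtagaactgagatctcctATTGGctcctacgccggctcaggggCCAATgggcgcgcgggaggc
Asns: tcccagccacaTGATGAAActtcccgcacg
The Asns match lies 16 to 23 bases before the RefSeq start site. In GENCODE the first Asns exon base in that window lies 45 bases before the same site. The match and the printed bases thus lie downstream of an exon base annotated there. TGATGNAA was found upstream of 1 of the 9 genes and in 3.45% of 32851 windows of all genes. CCAAT was found upstream of 6 of the 9, namely Phgdh, Psat1, Psph, Shmt1, Mthfd1 and Mthfd2, and in 33.8% of all windows. CACGTG was found upstream of 0 of the 9 and in 6.02% of all windows. The counts are of genes and the percentages of windows, with 32851 windows for 27025 genes, so they are unlike measures. The boxes of Psat1 lie 32 to 36 and 2 to 6 bases before its start, and those of Mthfd2 begin 96, 47 and 22 bases before. The Shmt2 window held none of these motifs. The windows of Psph, Mthfd1, Mthfd1l and Mthfd2, and the Psat1 window not printed, do not lie upstream of every RefSeq start of their genes. In GENCODE, another annotation, the windows of Phgdh, Shmt1 and Asns also hold exon bases of their own gene. Any relation of the motifs to the fold changes was not tested. A match is a description of letters and not of a bound site.

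Among the enzymes of serine synthesis the middle step changed most. Phgdh (chromosome 3, 98313171 to 98339969, minus strand, protein coding), the entry enzyme, measured 305, 329 and 304 CPM in LPS replicates 1 to 3 and 330, 322 and 322 CPM in LPS plus PE-CUR. The groups overlapped, and the change did not pass (log2 fold change 0.05, SE 0.05, 95% interval -0.07 to 0.17, edgeR adjusted p = 0.418). The upper end of that interval is below the lower end of the interval of Psat1, which was 0.735 to 0.990. Psat1 (chromosome 19, 15905123 to 15925059, minus strand, protein coding) measured 294, 319 and 284 CPM in LPS and 544, 536 and 551 CPM in LPS plus PE-CUR. Every LPS plus PE-CUR library lay above every LPS library (log2 fold change 0.86 ± 0.06 SE, adjusted p = 4.93e-07 by edgeR). Groups did not overlap for 8 of the 9 enzymes, as for 69% of all genes tested. Psph (chromosome 5, 129765558 to 129787443, minus strand, protein coding) measured 102, 104 and 105 CPM in LPS and 123, 121 and 117 CPM in LPS plus PE-CUR. Its rise was small beside that of Psat1 but larger than the spread of its replicates (log2 fold change 0.22, SE 0.05, adjusted p = 0.00447 by edgeR). In GENCODE's annotation 10.4% of the Psph exon bases also belong to Cct6a, a chaperonin gene on the opposite strand. Cct6a rose by a log2 fold change of 0.81 (edgeR adjusted p = 1.22e-06), and its part in the Psph count was not tested.

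FPKM divides the count by gene length as well as by the library total, so that genes can be set beside each other. Within each library the FPKM of Psat1 over that of Phgdh was 0.725, 0.727 and 0.702 in LPS and 1.24, 1.25 and 1.29 in LPS plus PE-CUR. On the gene lengths that the deposited FPKM imply, Psat1 was thus below Phgdh in every LPS library and above it in every library with PE-CUR. With all exon bases of each gene in GENCODE as its length, which was added after seeing the data, the ratio was 0.564, 0.566 and 0.546 in LPS and 0.965 and 0.974 in replicates 1 and 2 with PE-CUR and 1, to 3 decimals, in replicate 3. On those lengths Psat1 came close to Phgdh and did not stand above it. The ratio of Psat1 to Psph moved from 4.55 ± 0.279 to 7.11 ± 0.251 (SD, n = 3). Both ratios were chosen after their values were seen and are given without a test.

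**Figure D2:**
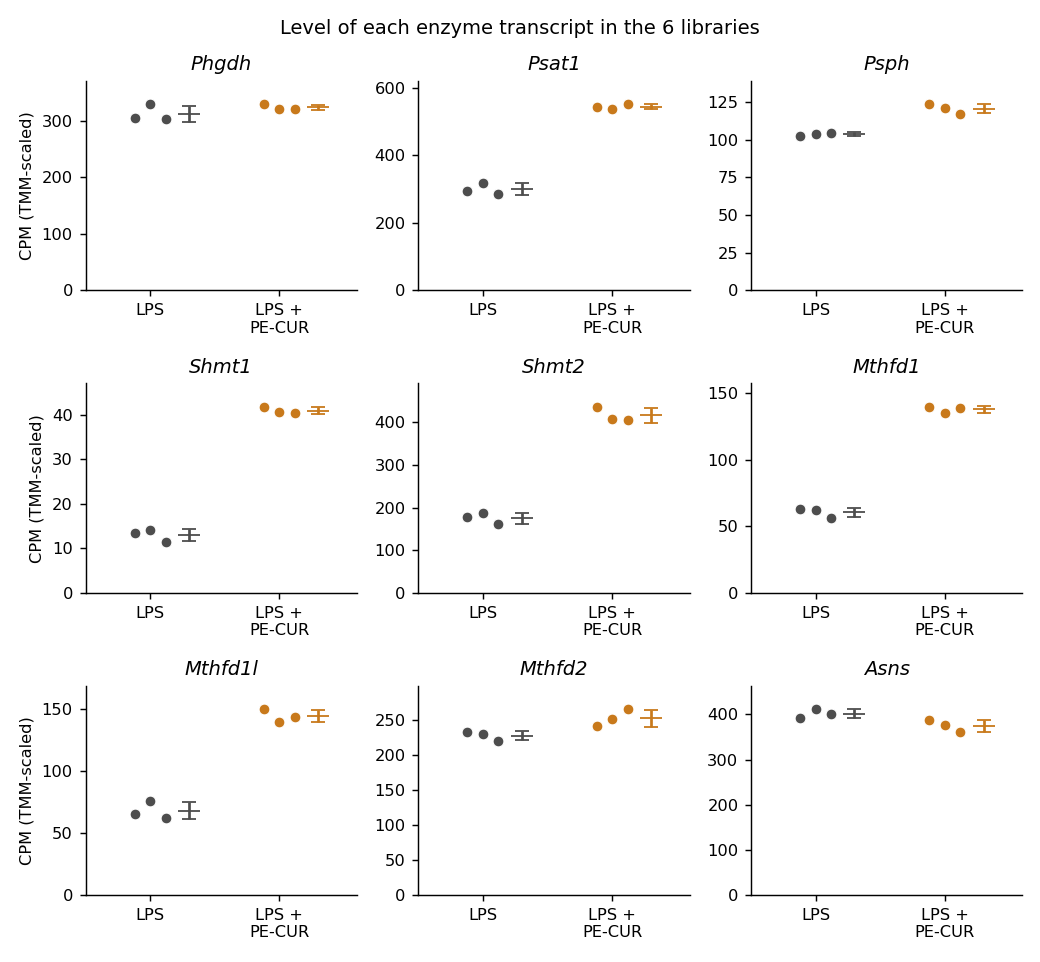
CPM scaled by TMM factors for each enzyme in every library (points, replicates 1 to 3 from left to right) with mean and SD beside them, from 0 on each axis. Psat1, Shmt1, Shmt2, Mthfd1 and Mthfd1l separate widely, from 284 to 319 CPM against 536 to 551 CPM for Psat1, while Phgdh overlaps.

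The 2 serine hydroxymethyltransferases had the largest fold changes, but only Shmt1 stood apart. The 95% interval of the log2 fold change of Shmt2 (1.10 to 1.39) overlapped that of Mthfd1 (1.05 to 1.33). Shmt1, the cytosolic enzyme (chromosome 11, 60788897 to 60811265, minus strand, protein coding), measured 13.6, 14.1 and 11.5 CPM in LPS and 41.8, 40.6 and 40.4 CPM in LPS plus PE-CUR. The lowest library with PE-CUR was thus far above the highest without it (3.14-fold, log2 fold change 1.65, SE 0.09, adjusted p = 1.42e-07 by edgeR). Shmt1 shares 4.74% of its exon bases with Smcr8 on the opposite strand, which fell (log2 fold change -0.41, edgeR adjusted p = 7.65e-05). Shmt2, the mitochondrial enzyme (chromosome 10, 127517123 to 127522444, minus strand, protein coding), measured 179, 187 and 161 CPM in LPS and 437, 408 and 405 CPM in LPS plus PE-CUR. Again no library of one group reached the other (2.37-fold, log2 fold change 1.25, SE 0.07, adjusted p = 1.31e-07 by edgeR). Among all 13014 genes tested, Shmt2 ranked 140 and Shmt1 152 by p.

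The cytosolic enzyme Mthfd1 and the mitochondrial synthetase Mthfd1l rose by similar amounts, and Mthfd2 changed far less. Mthfd1 (chromosome 12, 76254406 to 76319820, plus strand, protein coding) measured 62.8, 62.1 and 56.4 CPM in LPS and 140, 135 and 139 CPM in LPS plus PE-CUR (log2 fold change 1.19, SE 0.06, edgeR adjusted p = 1.25e-07). Mthfd1l (chromosome 10, 3972892 to 4167081, plus strand, protein coding) measured 65.8, 75.9 and 62.7 CPM in LPS and 150, 140 and 143 CPM in LPS plus PE-CUR (log2 fold change 1.08, SE 0.08, edgeR adjusted p = 6.19e-07). Both genes thus stood more than 1 log2 unit higher with PE-CUR, with no overlap of groups. Mthfd2 (chromosome 6, 83305704 to 83326011, minus strand, protein coding) measured 234, 231 and 221 CPM in LPS and 242, 252 and 266 CPM in LPS plus PE-CUR. Its groups lay side by side without overlap (log2 fold change 0.15, SE 0.06, adjusted p = 0.0387 by edgeR). The call of Mthfd2 ended in 8 of 17 alternative analyses, among them without LPS replicate 3 (log2 fold change 0.16, edgeR adjusted p = 0.0745) and without LPS plus PE-CUR replicate 3 (0.14, edgeR adjusted p = 0.0902).

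Ratios within a library set mitochondrial enzymes against cytosolic ones. FPKM of Shmt2 over Shmt1 within a library was 17.5, 17.6 and 18.6 in LPS and 13.8, 13.3 and 13.3 in LPS plus PE-CUR. The ratio was lower in each library with PE-CUR (difference of log2 ratios -0.41, exact two-sided permutation p = 0.1, adjusted over 3 ratios 0.15). FPKM of Mthfd2 over Mthfd1 was 6.53, 6.51 and 6.86 in LPS and 3.04, 3.28 and 3.36 in LPS plus PE-CUR, with no overlap (difference -1.04, exact permutation p = 0.1, adjusted 0.15). FPKM of Mthfd1l over Mthfd1 was 0.969, 1.13 and 1.03 in LPS and 0.992, 0.958 and 0.954 in LPS plus PE-CUR. These values overlapped (difference -0.10, exact permutation p = 0.2, adjusted 0.2). For 3 against 3 libraries an exact p cannot go below 0.1, so none of the ratios could reach the threshold.

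**Figure D3:**
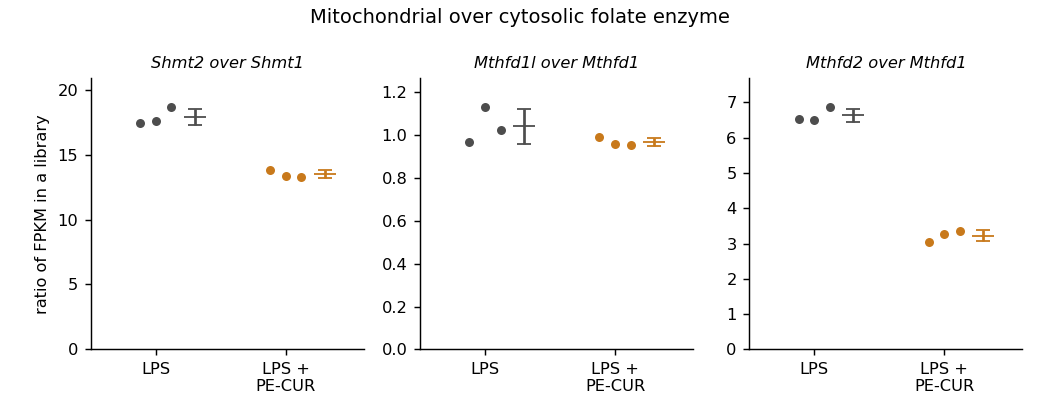
Ratio of FPKM of a mitochondrial enzyme to a cytosolic one in each library (points), with mean and SD, from 0 on each axis. Mthfd2 over Mthfd1 went from 6.63 ± 0.195 to 3.23 ± 0.166 and Shmt2 over Shmt1 from 17.9 ± 0.640 to 13.5 ± 0.306 (SD, n = 3), while Mthfd1l over Mthfd1 overlapped.

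Asns (chromosome 6, 7675165 to 7693209, minus strand, protein coding) measured 392, 411 and 400 CPM in LPS and 388, 376 and 361 CPM in LPS plus PE-CUR. All 3 libraries with PE-CUR were below all 3 without it, by a margin that did not pass (log2 fold change -0.10, SE 0.05, 95% interval -0.21 to 0.02, edgeR adjusted p = 0.137). It passed as lower with library size alone (log2 fold change -0.15, edgeR adjusted p = 0.0391). It also passed with a filter at a mean of 1 CPM (-0.13, edgeR adjusted p = 0.0476) and on log2 FPKM of the same genes (-0.15, limma adjusted p = 0.0428 with a pseudocount of 1).

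Per gene length, Asns and Phgdh were the most abundant of the 9 in LPS, at 173 ± 4.01 and 170 ± 7.10 FPKM (SD, n = 3), with overlapping libraries. Psat1 followed at 122 ± 6.63, Mthfd2 at 98.3 ± 2.50, Shmt2 at 77.6 ± 5.26 and Psph at 26.9 ± 0.438 FPKM, each clear of its neighbours. Mthfd1l and Mthfd1, at 15.5 ± 1.49 and 14.8 ± 0.787 FPKM, overlapped each other, and Shmt1 was lowest at 4.35 ± 0.432 FPKM. In LPS plus PE-CUR, Psat1 was first at 214 ± 6.26 FPKM, a rank that depends on the gene length used. Shmt2 came next at 177 ± 11.8 and overlapped Phgdh at 170 ± 6.41 FPKM. Asns followed at 156 ± 8.67 and Mthfd2 at 105 ± 3.62 FPKM. Mthfd1 at 32.6 ± 1.28, Mthfd1l at 31.5 ± 1.86 and Psph at 30.1 ± 1.40 FPKM overlapped, and Shmt1 was lowest at 13.1 ± 0.568 FPKM. Shmt2 thus moved from below Mthfd2 to above it, with FPKM ratios of 0.784, 0.830 and 0.751 in LPS and 1.85, 1.66 and 1.56 in LPS plus PE-CUR. On GENCODE exon lengths Psat1 ranked 4 with PE-CUR, at 128 ± 1.71 CPM per kilobase, after Asns at 137 ± 4.83, Shmt2 at 134 ± 5.65 and Phgdh at 131 ± 1.78 (SD, n = 3). The order of Shmt2 and Mthfd2 was the same on both lengths, with Shmt2 lower in LPS and higher with PE-CUR in every library.

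**Figure D4:**
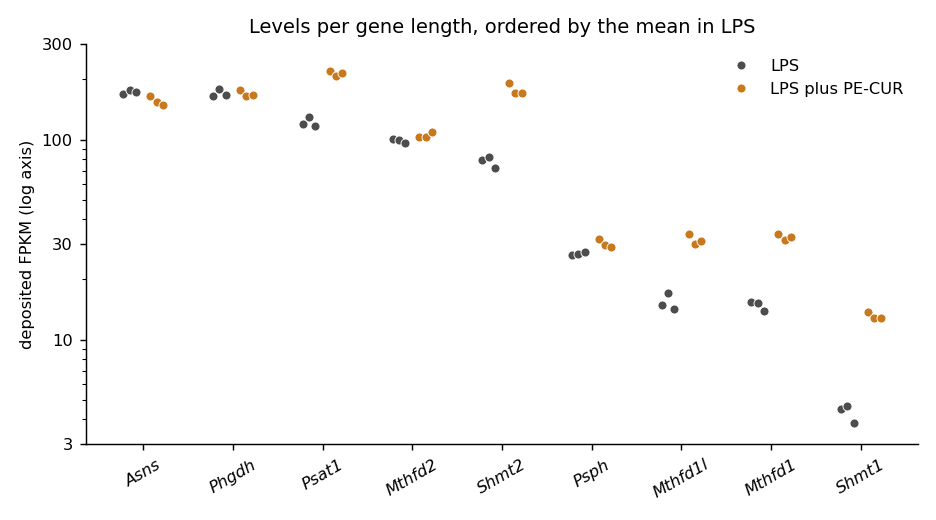
Deposited FPKM of each enzyme in every library on a log axis, ordered by the mean in LPS. Psat1 stands above Phgdh and Asns, and Shmt2 above Mthfd2, with PE-CUR but not in LPS on the deposited gene lengths, while Shmt1 is lowest in both groups at 4.35 and 13.1 FPKM.

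Replicates varied little. The coefficient of variation in CPM was 1.22% to 10.5% across the 9 enzymes in LPS, lowest for Psph and highest for Shmt1, and 1.33% to 4.79% in LPS plus PE-CUR, lowest for Psat1 and highest for Mthfd2. LPS replicate 3 was the lowest LPS library for Phgdh, Psat1, Shmt1, Shmt2, Mthfd1, Mthfd1l and Mthfd2. The genes whose log2 CPM ran most like these enzymes over the 6 libraries were Timeless for Shmt1 (Pearson r = 0.9999), Cpsf3 for Shmt2 (0.9998) and Ly86 for Mthfd1 (0.9997). Among 9789 genes compared, 23.1% had r above 0.95 with each of these enzymes, and all 6 points are the same libraries in 2 groups, so these values are a description.

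The wider folate pathway moved in both directions, in shares near those of all genes tested (30.8% higher, 32.7% lower). Of 15 tested genes of folate uptake and interconversion 5 rose, 5 fell and 5 did not pass (median log2 fold change -0.06). Tyms, which makes thymidylate, rose from 12.9 ± 2.36 to 34.2 ± 4.40 CPM (SD, n = 3, edgeR adjusted p = 2.67e-05). The folate carrier gene Slc19a1 rose from 26.7 to 51.5 CPM. Ggh, which trims the glutamate tail of folates, fell from 41.1 ± 1.48 to 20.9 ± 1.40 CPM (edgeR adjusted p = 1.36e-06). Aldh1l2, the mitochondrial enzyme that oxidises formyl folate, fell from 192 to 160 CPM (log2 fold change -0.26), and Mtfmt, which formylates the initiator tRNA of mitochondria, from 35.7 to 31.4 CPM (-0.18). The Mtfmt call ended in 11 of 17 alternatives, among them each that left out a library (log2 fold change -0.17 to -0.12). The Aldh1l2 call ended without LPS replicate 1 or 3 or LPS plus PE-CUR replicate 2 or 3 (-0.22 to -0.19), and with any 1 library left out the list had 2 to 4 lower genes in place of 5. Mthfd2l, a relative of Mthfd2, stood at 8.53 ± 0.342 and 6.96 ± 0.850 CPM, which missed the threshold (log2 fold change -0.29, adjusted p = 0.0715 by edgeR). It passed as lower in 5 of 17 alternatives, with library size alone, a filter at a mean of 1 CPM and the 3 FPKM settings (-0.35 to -0.26, adjusted p = 0.0241 to 0.0477 by edgeR or limma).

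All 6 tested enzymes of purine synthesis that use or lie next to a formyl folate or glycine step rose (median log2 fold change 1.05). For each list in this paragraph, the share over all genes tested was 30.8% higher. Gart, which uses both glycine and formyl folate, rose from 67.9 ± 6.09 to 189 ± 1.96 CPM, Pfas from 42.7 ± 2.56 to 103 ± 2.74 CPM and Ppat from 43.8 ± 3.54 to 96.3 ± 0.676 CPM (SD, n = 3, edgeR adjusted p at most 2.99e-07). Of 20 proliferation genes 20 rose as well, with a summed level of 949 to 1261 CPM in LPS and 3263 to 3894 CPM in LPS plus PE-CUR. Tk1, thymidine kinase, rose from 14.3 to 85.5 CPM and Cdc20, an activator of mitotic exit, from 13.3 to 62.5 CPM. Mki67 varied widely within groups, at 96.3, 47.1 and 36.5 CPM in LPS and 194, 677 and 321 CPM in LPS plus PE-CUR. Its call (log2 fold change 2.73, edgeR adjusted p = 0.0266) ended without LPS replicate 2 or 3 or LPS plus PE-CUR replicate 2 or 3 (2.15 to 2.88 on the log2 scale). The part of proliferation in the rise of the folate enzymes was not tested. All 10 mitochondrial sentinel genes rose too (median 0.42), among them Atp5b from 812 to 1526 CPM, Mrpl12 from 59.0 to 96.0 CPM and Ndufa9 from 76.5 to 110 CPM.

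Most genes of a list for the ATF4 pathway were lower. The list holds Atf4 and kinases upstream of it besides targets. It leaves out the enzymes studied here and targets placed in other lists. Of 23 tested genes 3 rose, 16 fell and 4 did not pass (median log2 fold change -0.34). Over all genes tested 30.8% were higher and 32.7% lower. Ddit3, the stress factor CHOP, measured 150, 164 and 171 CPM in LPS and 40.1, 49.6 and 54.2 CPM in LPS plus PE-CUR. Trib3, a pseudokinase that feeds back on ATF4, fell from 148 ± 8.75 to 46.6 ± 5.86 CPM (adjusted p = 2.46e-07 by edgeR, and 1.31e-06 for Ddit3). Ppp1r15a, which restarts translation after stress, fell from 179 ± 20.3 to 45.0 ± 1.95 CPM, Atf3 from 268 ± 20.1 to 78.2 ± 13.4 CPM and the cystine transporter gene Slc7a11 from 473 ± 27.8 to 201 ± 27.3 CPM (edgeR adjusted p at most 1.01e-05). The 3 that rose were Eif2ak2 (log2 fold change 0.47), Slc7a5 (0.46) and Aldh18a1 (0.22). The Aldh18a1 call ended with library size alone (0.17, edgeR adjusted p = 0.0687) and on the FPKM scales (0.16, limma adjusted p = 0.0937 to 0.175). Atf4 itself, which is also in the list of regulators, fell from 543 ± 24.7 to 479 ± 28.1 CPM (-0.18 on the log2 scale, adjusted p = 0.0233 by edgeR). That call ended without LPS replicate 1, 2 or 3 or LPS plus PE-CUR replicate 1 or 2 (-0.18 to -0.11 on the log2 scale). It also ended with no filter (-0.13, edgeR adjusted p = 0.125) and when mitochondrially encoded genes and the 10 most abundant ones were removed (-0.15, edgeR adjusted p = 0.0565). None of Phgdh, Psat1, Psph, Shmt2, Mthfd2 and Asns, which are known ATF4 targets, fell in the edgeR test with all libraries, although Asns passed as lower under the settings given above.

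Among 13 regulators tied to these enzymes 7 rose, 3 fell and 3 did not pass (median log2 fold change 0.33). The shares over all genes tested were 30.8% higher and 32.7% lower. Mycn, a relative of Myc, measured 282, 285 and 251 CPM in LPS and 664, 601 and 647 CPM in LPS plus PE-CUR (edgeR adjusted p = 1.51e-07), while Myc fell from 19.2 ± 2.04 to 13.9 ± 1.40 CPM (edgeR adjusted p = 0.00341). Hif1a rose from 289 to 471 CPM and Trp53 from 103 to 158 CPM. Nfe2l2, the factor NRF2, fell from 139 to 115 CPM (log2 fold change -0.27), a call that ended without LPS replicate 1, 2 or 3 or LPS plus PE-CUR replicate 1 (-0.24 to -0.13). The count of lower regulators was 1 in each of those 4 fits.

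Most genes of a list for serine use, which holds the Serinc family along with enzymes that act on serine, were lower. Of 12 tested, 3 rose, 8 fell and 1 did not pass (median log2 fold change -0.44). Serinc5, of a family linked to serine incorporation into lipids, fell from 12.8 to 2.93 CPM, Srr, the serine racemase, from 40.9 to 20.1 CPM and Serinc1 from 308 to 184 CPM. Serinc3 rose from 920 to 1192 CPM, Sars2, the mitochondrial seryl-tRNA synthetase, from 4.40 to 9.50 CPM and its cytosolic relative Sars from 706 to 777 CPM. The Sars call (log2 fold change 0.14) ended in 9 of 17 alternatives. These included library size alone (0.08), a filter at a mean of 1 CPM (0.10), the FPKM scales (0.08) and the fits without LPS replicate 1 or 3 or LPS plus PE-CUR replicate 3 (0.16 in each). Among 13 serine and glycine transporters 3 rose, 5 fell and 5 did not pass (median -0.22), where 30.8% of all genes tested were higher and 32.7% lower. Sfxn1, which brings serine into mitochondria, rose from 71.9 ± 2.16 to 124 ± 2.20 CPM (edgeR adjusted p = 7.18e-07), Sfxn2 from 5.85 to 10.7 CPM and Slc1a5 from 267 to 395 CPM. Its relative Sfxn3 fell from 39.4 to 23.2 CPM, Slc36a1 from 61.5 to 33.7 CPM and the glycine transporter gene Slc6a9 from 40.4 to 29.7 CPM.

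Of 9 tested genes of glycine cleavage and use 4 rose, 1 fell and 4 did not pass (median log2 fold change 0.16). Beside this list and those that follow, 30.8% of all genes tested were higher and 32.7% lower. Gcat, which cleaves a threonine product to glycine, rose from 6.43 ± 1.21 to 25.6 ± 3.19 CPM, Gcsh from 50.5 to 83.3 CPM and Gatm from 106 to 150 CPM. Gldc, the decarboxylase of the glycine cleavage system, was low at 0.923 ± 0.344 and 0.663 ± 0.0902 CPM (edgeR adjusted p = 0.269). The gene that fell was Amt, another subunit of that system, at 3.55 and 1.58 CPM, named after its value was seen. Of 14 genes of the methionine cycle and transsulfuration 6 rose, 1 fell and 7 did not pass (median 0.05). Ahcy, which clears the product of methylation reactions, rose from 22.9 ± 3.51 to 59.0 ± 4.04 CPM, Mmachc, a cobalamin enzyme, from 10.9 to 23.5 CPM and Mtap from 61.5 to 98.4 CPM, whereas Ahcyl2 fell from 94.8 to 74.0 CPM. Without LPS plus PE-CUR replicate 3 the lower genes numbered 2 in the glycine list and 3 in the methionine list. Around Asns, 6 of 8 tested genes of asparagine and aspartate rose, 0 fell and 2 did not pass (median 0.33). Asrgl1, an asparaginase, rose from 11.4 to 17.2 CPM and Got2, an aspartate aminotransferase, from 281 to 425 CPM, while Asnsd1 stood at 66.7 and 65.8 CPM (edgeR adjusted p = 0.803).

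**Figure D5:**
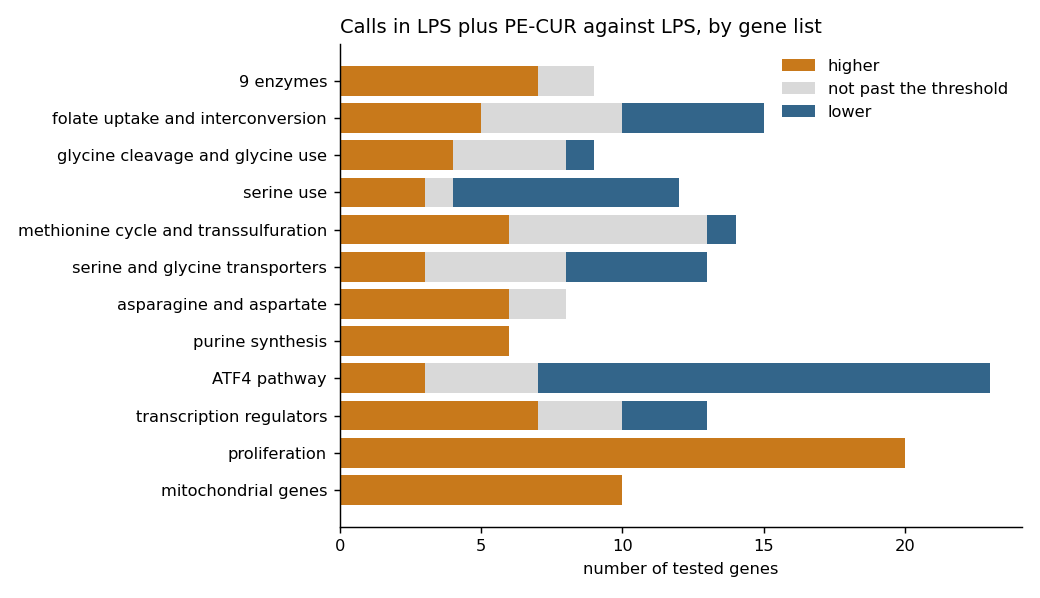
Number of tested genes in each list that were higher, not past the threshold or lower in LPS plus PE-CUR (edgeR adjusted p under 0.05). The purine and proliferation lists are wholly higher, at 6 of 6 and 20 of 20, and the ATF4 list is mostly lower, at 16 of 23. Among all genes tested 30.8% were higher and 32.7% lower.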

How the data were processed

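RNA sequencing of 6 samples (3 LPS, 3 LPS plus PE-CUR) was re-analysed. The authors deposited whole-number counts per gene symbol and FPKM values for the same genes. The tools named per the submitters' processing notes are DESeq2, fastp, HTSeq and SAMtools, without versions, and the build is mm10. For aligner, annotation and strand setting the entry is: not given in the sources used here. Reads of overlapping genes on opposite strands may therefore be mixed. The deposited FPKM equal count over length and library total in 100% of 105337 values (relative tolerance 1e-04), so they are no second measurement.

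The count test was edgeR 4.0.16 in R 4.3.3 (filterByExpr by group, TMM factors of 0.964 to 1.03, robust quasi-likelihood fit with the group as its only term, two-sided p-values adjusted by Benjamini-Hochberg over 13014 genes). SE is the log2 fold change over the root of F. CPM are TMM-scaled, except for cell type markers, single or summed, and the sum over proliferation genes. Alternatives used limma 3.58.1 and DESeq2 1.42.0. Replicates of a group differed beyond sampling noise (chi-square per degree of freedom 9.53 to 45.3). The enzymes and gene lists were chosen with earlier results of these data known. The naming rule gives all 9 enzymes, up to 3 genes per list and direction with the largest called fold change (mean of at least 5 CPM, no overlap of groups) and a fixed set in any case (Atf4, Ddit3, Trib3, Slc7a11, Myc, Tyms, Mthfd2l, Aldh1l2, Gldc, Asnsd1, Mki67). Some genes that the rule names are not reported here. For likeness of pattern it takes the closest genes of the 3 enzymes with the smallest p.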

Additional observations from a re-analysis of the deposited data

How the results depend on the processing

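Shmt1, Shmt2, Mthfd1, Mthfd1l and Psat1 stayed higher and past the threshold in all 17 alternatives, with log2 fold changes of 1.40 to 1.75, 1.18 to 1.33, 1.08 to 1.25, 0.99 to 1.21 and 0.80 to 0.95. The enzymes called higher numbered 5 to 7 and those called lower 0, or 1 (Asns) with library size alone, a filter at a mean of 1 CPM, and log2(FPKM + 1) or log2(FPKM + 0.1) for the same genes. Under these 4 settings Asns was at -0.15, -0.13, -0.15 and -0.15 and Mthfd2, no longer past the threshold, at 0.0933, 0.1169, 0.0925 and 0.0933. With log2(FPKM + 1) and no filter Mthfd2 (0.0925) and Psph (0.16, limma adjusted p = 0.0560) also missed it. Phgdh turned to -0.0024 with library size alone and to -0.0019 on the FPKM scales. With 1 library left out Mthfd2 ranged from 0.14 to 0.21 and the members called higher from 6 to 7. Labels give no pairing, and deviations of same-numbered libraries correlated at -0.178 to -0.048. With the replicate number as a block, 3708 genes were higher and 3953 lower (4004 and 4252 without), 6 enzymes were higher, and Mthfd2 was lost (0.15, edgeR adjusted p = 0.0892). In the lists the largest relative changes of the lower genes with all libraries were from 5 to 3 (folate) and from 1 to 2 (glycine) with no filter. Others were from 1 to 2 (glycine) on log2(FPKM + 1) with no filter, and from 1 to 2 (methionine) with limma-voom and on both FPKM scales. Smaller changes are left out here. Over all 17 alternatives the lower genes numbered 2 to 7 (folate), 4 to 7 (transporters) and 13 to 17 (ATF4 pathway). Over fits without 1 library they numbered 2 to 4 (folate), 1 to 2 (glycine), 1 to 3 (methionine) and 1 to 4 (regulators). Asnsd1, at -0.02, was at 0 with median-ratio factors and DESeq2, 0.0365 with no filter, 0.0165 without the mitochondrial and 10 most abundant genes, and -0.0071 to 0.0358 without 1 library. The 3 ratios kept their direction in all 9 alternatives. Depth limits genes at low levels such as Gldc, whose mean was under 1 CPM in both groups.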
